A study of Mus musculus with 4 samples.

Results

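TGF-beta signalling genes form the set described here: the 3 ligand genes Tgfb1, Tgfb2 and Tgfb3, the 3 receptor genes Tgfbr1, Tgfbr2 and Tgfbr3, and the 3 latent binding protein genes Ltbp1, Ltbp3 and Ltbp4, 9 of the 30268 genes in the table. They were taken by name and not by a rule on their values, although earlier results of these data were known at that time. A joined row that holds a member, Gm43422_Tgfbr3, was counted beside them, which gives 10 table rows. The data are Drop-seq libraries of embryonic mouse heart, in which each cell is caught in a droplet with a barcoded bead and transcripts are counted by unique molecular identifiers (UMIs). There were 4 libraries, 1 per genotype and stage. Controls were Wt1 CreERT2/+; Rosa26mTmG/+, from embryonic day E13.5 or E14.5. Knockouts, written Lats1/2 CKO, were Wt1 CreERT2/+; Lats1/2 F/F; Rosa26mTmG/+ at the same stages. All 4 libraries therefore carry 1 Wt1 allele replaced by CreERT2, whose recombinase needs tamoxifen to reach the nucleus, and the mTmG reporter, which switches from membrane tdTomato to membrane EGFP where Cre has acted. Cre is expressed from the Wt1 locus, so deletion is directed to cells in which Wt1, a gene of the epicardium, is active at the time of tamoxifen. Descendants of such cells keep the deletion, whatever their later class. Cells of a Lats1/2 CKO heart that neither underwent the deletion nor descend from cells that did keep their floxed alleles. The sources used here do not give the number of embryos in a library, their litters or the tamoxifen schedule.

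TGF-beta ligands are secreted as latent complexes, in which the mature dimer stays bound to its own propeptide. Latent TGF-beta binding proteins attach to that complex and tether it to the extracellular matrix, from which it is released by integrins and proteases. Freed ligand is bound by the type II receptor (Tgfbr2), which recruits and phosphorylates the type I receptor (Tgfbr1), and this activates SMAD2 and SMAD3. Tgfbr3, or betaglycan, is a co-receptor that presents ligand to the type II receptor and matters most for the ligand from Tgfb2. In the embryonic heart the pathway is known for the change of endocardial cells into valve mesenchyme and of epicardial cells into fibroblasts and mural cells. LATS1 and LATS2 are kinases of the Hippo pathway that restrain the transcriptional co-activators YAP and TAZ.

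Cells were assigned to a class by a gate on fixed marker genes, none of which is a member. The 8 classes compared were epicardial-like, fibroblast-like, valve-mesenchyme-like, mural-like, coronary-endothelial-like, endocardial-like, cardiomyocyte-like and macrophage-like, and erythroid-like cells served as a background class. The gate placed 16826 of 21485 cells in the 8 classes, with 51 to 2955 cells and 75690 to 7152260 UMIs per class and library. Median depth was 1589 and 2015 UMIs per cell in control and Lats1/2 CKO at the earlier stage and 955 and 1035 at the later one. Pairs of libraries shared 2 to 4 cell barcodes. Of the gated cells, 94.4% of the epicardial-like, 92.7% of the valve-mesenchyme-like, 92.6% of the endocardial-like and 99.1% of the macrophage-like lay in a joint cluster named for the same class. The shares were 53.1% for fibroblast-like and 56.5% for mural-like cells, and 1 cluster with markers of both, mostly of E14.5 cells, was left unnamed. The clusters were named from the same marker lists, so these shares are no independent check of the gate. The epicardial-like gate also carried the driver: Creert2 stood at 36.1, 85.6, 6.21 and 58.1 CPM (UMIs per 1000000 UMIs of the class) for control and then Lats1/2 CKO at E13.5, followed by the same pair at E14.5, and this order holds for all series of 4 values below. It stood at 16, 52.7, 0 and 21 CPM in fibroblast-like and 5.26, 25.7, 4.57 and 35.9 CPM in coronary-endothelial-like cells, so the driver was not confined to the epicardial-like class. Wt1, at whose locus the driver lies, is a marker of the epicardial-like gate, so Creert2 is not independent of that gate. Egfp, which marks recombined cells, stood at 84.2, 586, 31.1 and 549.9 CPM in epicardial-like cells. It stood at 69.3, 173, 52.9 and 155 CPM in fibroblast-like and 18.4, 51.4, 16 and 88.5 CPM in coronary-endothelial-like cells. In these classes Egfp was thus higher in Lats1/2 CKO at both stages, although the controls carry the same driver and reporter. The reason was not tested, and the genotype comparisons below hold this difference. Lats2 stood at 57.7, 32.4, 86.9 and 42.5 CPM and Lats1 at 24, 16.9, 43.5 and 17.9 CPM in epicardial-like cells, lower in Lats1/2 CKO at both stages. Which exons are deleted is not given in the sources used here, and tags near the 3′ end of a transcript may lie outside them, so these values do not check the labels.

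Tgfb1 was high in endothelial, endocardial and macrophage-like cells, Tgfb2 in valve-mesenchyme-like and mural-like cells, and Tgfb3 in epicardial-like and valve-mesenchyme-like cells. Tgfbr2 and Tgfbr3 were highest in endocardial-like cells, and the 3 latent binding protein genes in valve-mesenchyme-like or mural-like cells. A class was compared with the equal-weight mean of the other 7 by edgeR's quasi-likelihood test on UMIs summed per class and library, with library as a block, and p-values were Benjamini-Hochberg adjusted over 10225 genes with 0.05 as the threshold. All 9 members passed the filter on low counts and Gm43422_Tgfbr3 did not. Of the 72 values for 9 members in 8 classes, 31 were higher, 22 were lower and 19 did not pass. The libraries differ in genotype and stage, so the standard deviations (SD) below, each over n = 4 libraries, hold both. Each genotype and stage has 1 library. With library as a block, the p-values rest on how the differences between classes vary among these 4 libraries. That variation holds effects of genotype and stage on single classes and may be technical in part.

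**Figure D1:**
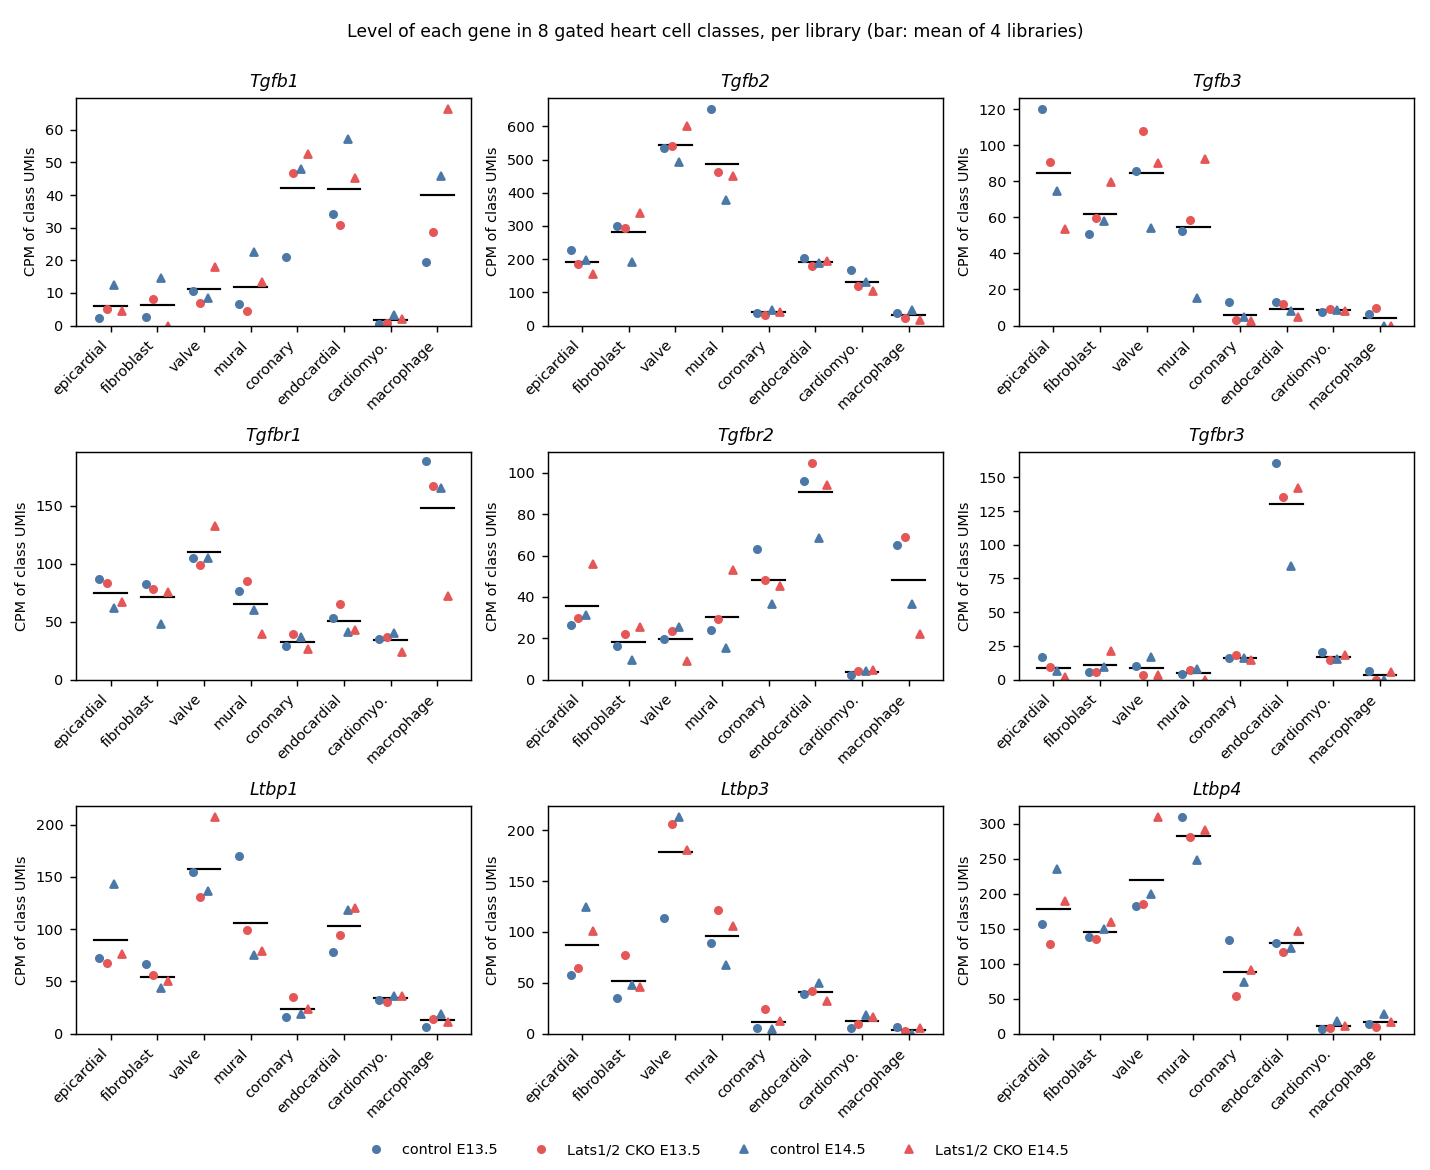
Level of each gene, in CPM of all UMIs of a class (vertical axis, linear, from 0), in 8 gated heart cell classes (horizontal axis). Points are the 4 libraries (blue control, red Lats1/2 CKO, circles E13.5, triangles E14.5) and the bar is their mean. Tgfbr3 stands at 84.4 to 161 CPM in endocardial-like cells and at 21 CPM or less in each library of the other classes.

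The members' calls stood against a background in which many genes differ between classes. In valve-mesenchyme-like cells 6 of 9 members were higher and 1 lower, where 22.1% of all genes tested were higher and 15.5% lower, and the members' median log2 difference was 1.44. Over all genes the median lay between -0.11 and 0.02 in each of the 8 classes. Mural-like cells had 5 higher and 0 lower (all genes 11.3% and 6.33%), with a median of 1.26. Fibroblast-like cells had 4 higher and 0 lower (all genes 12.9% and 7.16%), with a median of 0.11. Epicardial-like cells had 4 higher and 1 lower (all genes 20.5% and 12.7%), with a median of 0.39. Endocardial-like cells had 6 higher and 2 lower (all genes 24.2% and 17.8%), with a median of 0.69. Coronary-endothelial-like cells had 2 higher and 5 lower (all genes 19.7% and 18%), with a median of -1.21. Macrophage-like cells had 3 higher and 6 lower (all genes 18.4% and 22.6%), with a median of -2.39. Cardiomyocyte-like cells had 1 higher and 7 lower (all genes 31.7% and 34.2%), with a median of -1.30. The members called were thus mostly higher in the mesenchymal and endocardial-like classes and mostly lower in cardiomyocyte-like, macrophage-like and coronary-endothelial-like cells.

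**Figure D2:**
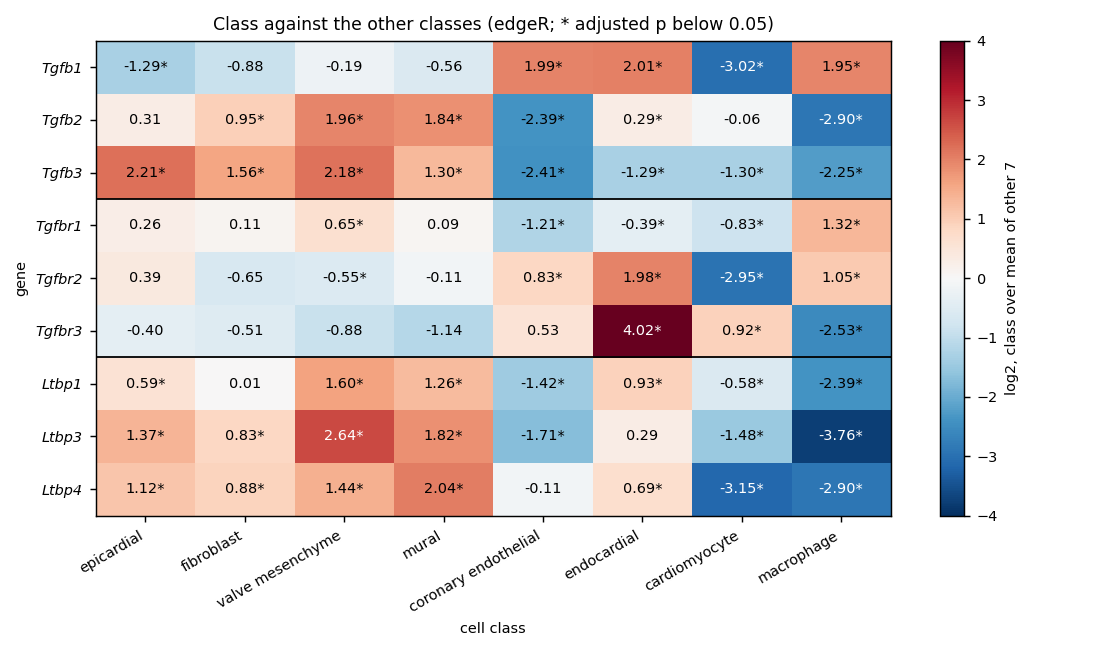
Log2 difference of each gene (rows) in each class (columns) from the equal-weight mean of the other 7 classes, from edgeR, with red higher and blue lower and an asterisk where the adjusted p is below 0.05. The values run from -3.76 for Ltbp3 in macrophage-like cells to 4.02 for Tgfbr3 in endocardial-like cells.

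Tgfb1 encodes the ligand best known from vessels and immune cells, and lies at chr7:25687002-25705077 (GRCm38). Its level was 21, 46.8, 48 and 52.6 CPM in coronary-endothelial-like cells, 34.1, 31, 57.3 and 45.3 CPM in endocardial-like cells and 19.5, 28.6, 46 and 66.5 CPM in macrophage-like cells. The 3 classes had means of 42.1 ± 14.3, 41.9 ± 12 and 40.1 ± 20.7 CPM (SD), their ranges overlapped, and their order was not the same in every library. Cardiomyocyte-like cells held 0.603, 0.699, 3.37 and 2.12 CPM, below each library of those 3 classes. The log2 difference from the other classes was 1.99 (SE 0.25, adjusted p = 5.48e-09) in coronary-endothelial-like, 2.01 (SE 0.20, adjusted p = 3.44e-12) in endocardial-like and 1.95 (SE 0.36, adjusted p = 1.17e-05) in macrophage-like cells. It was -3.02 (SE 0.28, adjusted p = 3.38e-13) in cardiomyocyte-like cells. Epicardial-like cells were lower as well, at -1.29 (SE 0.47, adjusted p = 0.0282), from 9 UMIs in all. That call was lost without the control E13.5 library, at -1.25 (SE 0.52, adjusted p = 0.0634), without Lats1/2 CKO E13.5, at -1.52 (SE 0.61, adjusted p = 0.0631), without Lats1/2 CKO E14.5, at -1.12 (SE 0.55, adjusted p = 0.132), and with DESeq2, at -1.29 (SE 0.53, adjusted p = 0.0662).

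Tgfb2, at chr1:186622792-186705989, encodes the ligand known for the endocardial cushions. It stood at 536, 542, 492 and 602 CPM in valve-mesenchyme-like cells and at 654, 462, 377 and 449 CPM in mural-like cells. Fibroblast-like cells followed with 301, 295, 193 and 340.0 CPM, and no library of theirs reached a mural-like one. Endocardial-like cells held 203, 181, 189.6 and 193 CPM, epicardial-like cells 228, 184, 199 and 154 CPM and cardiomyocyte-like cells 166, 119, 132 and 103 CPM. At the low end were coronary-endothelial-like cells with 36.8, 31.7, 48 and 40.7 CPM and macrophage-like cells with 39, 21.4, 46 and 16.6 CPM, all below every library of the other 6 classes. Against the other classes the log2 value was 1.96 (SE 0.09, adjusted p = 8.27e-24) in valve-mesenchyme-like, 1.84 (SE 0.11, adjusted p = 1.49e-18) in mural-like and 0.95 (SE 0.12, adjusted p = 1.06e-08) in fibroblast-like cells. It was -2.39 (SE 0.19, adjusted p = 3.45e-15) in coronary-endothelial-like cells and -2.90 (SE 0.26, adjusted p = 3.04e-13) in macrophage-like cells. The small difference in endocardial-like cells, 0.29 (SE 0.10, adjusted p = 0.0205), was lost without Lats1/2 CKO E13.5, at 0.26 (SE 0.14, adjusted p = 0.181), without Lats1/2 CKO E14.5, at 0.26 (SE 0.11, adjusted p = 0.0523), and with DESeq2, at 0.27 (SE 0.13, adjusted p = 0.106). It was 0.76 with a stricter gate and 0.53 with at most 10% mitochondrial UMIs, where the former leaves the fibroblast-like and mural-like classes out of the comparison and the latter the mural-like class.

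Transcripts free in the suspension enter droplets of other cells, so shares of cells with a UMI were set beside erythroid-like cells, after each cell was thinned to 500 UMIs (185 erythroid-like cells, median depth 1234 UMIs before thinning). At least 1 Tgfb2 UMI was found in 20.8% (19 to 22.7) of valve-mesenchyme-like cells (95% Clopper-Pearson interval, counting error only, here and below), 20.7% (17.2 to 24.6) of mural-like and 12.7% (10.3 to 15.5) of fibroblast-like cells. The share was 5.53% (5.08 to 6.02) in cardiomyocyte-like cells (median depth 1355 UMIs), 5.41% (2.62 to 9.72) in erythroid-like cells and 0.905% (0.247 to 2.30) in macrophage-like cells. The cardiomyocyte-like share was therefore not above that of erythroid-like cells, although it was above that of macrophage-like cells. The shares of endocardial-like cells, 8.95% (7.89 to 10.1), and epicardial-like cells, 8.86% (6.63 to 11.5), also lay within the erythroid-like interval. By level, erythroid-like cells held 172, 224, 143 and 95.7 CPM of Tgfb2, no lower than cardiomyocyte-like cells in 3 of 4 libraries. The cardiomyocyte-like value is therefore not read as expression in those cells, and the part of free RNA in it was not tested. Mean Tgfb2 was 30.7 CPM in macrophage-like and 39.3 CPM in coronary-endothelial-like, below 130 CPM in cardiomyocyte-like and 159 CPM in erythroid-like cells. Macrophage-like means also lay below erythroid-like means for Tgfb3 and the latent binding protein genes, but above them for Tgfb1 and the receptor genes. The erythroid-like level is thus a cautious limit and not a measured level of free RNA. The erythroid-like means of 47.4 CPM for Ltbp1, 26.4 CPM for Tgfbr2 and 22.9 CPM for Tgfb3 rest on 20, 10 and 11 UMIs in all, and class means at or below them are not read as expression. The erythroid-like gate needs at least 10% haemoglobin UMIs, which lowers the CPM of other genes. Without haemoglobin and mitochondrial UMIs, the erythroid-like mean was 251 CPM for Tgfb2, against 199 in endocardial-like and 195 in epicardial-like cells. For Ltbp3 it was 92.4 CPM (epicardial-like 88.7), and for Tgfbr2 41.1 CPM (epicardial-like 36.6). For Tgfbr1 it was 73.3 CPM (fibroblast-like 73.4, mural-like 67.4). None of these class levels stood clear of the background class. For Ltbp4 the erythroid-like share was 6.49% (3.40 to 11.1), which overlaps that of fibroblast-like cells, 7.31% (5.47 to 9.52), and lies below that of mural-like cells, 18.1% (14.8 to 21.8). Tgfbr3 was found in 6.84% (5.90 to 7.86) of endocardial-like cells and in 0 of 185 erythroid-like cells, which allows a share of up to 1.62%. For Tgfb1 the share was 1.74% (0.900 to 3.01) in coronary-endothelial-like cells, 1.77% (1.31 to 2.35) in endocardial-like cells and 0.541% (0.0137 to 2.97) in erythroid-like cells, so at this depth the share alone did not set these classes apart. Without thinning, the Tgfb1 shares were 10.3%, 6.80% and 0.541% in the same order, and those of Tgfb2 were 48% in valve-mesenchyme-like and 19.7% in cardiomyocyte-like cells.

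Tgfb3, at chr12:86056745-86079041, encodes a ligand known from mesenchyme and fusing epithelia. Epicardial-like cells held 120.2, 90.8, 74.5 and 53.6 CPM and valve-mesenchyme-like cells 85.5, 108, 54 and 90.4 CPM, with means of 84.8 ± 28.1 and 84.4 ± 22.4 CPM (SD). Fibroblast-like cells held 50.6, 59.8, 57.8 and 79.7 CPM and mural-like cells 52.3, 58.6, 15.1 and 92.5 CPM. These 4 classes overlapped in range and did not overlap with the other 4, where the class means were 4.01 to 9.42 CPM. The gap rests on few UMIs. The mural-like control E14.5 value came from 2 UMIs, and the nearest below it, coronary-endothelial-like control E13.5 at 13.2 CPM, from 5. The 2 macrophage-like libraries of E14.5 held 0 UMIs, which allows up to 27.6 CPM in control and 16.6 CPM in Lats1/2 CKO (3 counts). On the log2 scale Tgfb3 differed by 2.21 (SE 0.20, adjusted p = 8.26e-13) in epicardial-like, 2.18 (SE 0.17, adjusted p = 3.72e-15) in valve-mesenchyme-like, 1.56 (SE 0.23, adjusted p = 5.99e-07) in fibroblast-like and 1.30 (SE 0.26, adjusted p = 0.000147) in mural-like cells. Each of the other 4 classes was lower, from -2.41 in coronary-endothelial-like to -1.29 in endocardial-like cells. The endocardial-like call was lost without Lats1/2 CKO E13.5, at -1.26 (SE 0.50, adjusted p = 0.0535), and the macrophage-like value, which rests on 5 UMIs, moved to -3.48. With clusters in place of the gate the mural-like value was 2.10 and the endocardial-like -0.78, and with the stricter gate the cardiomyocyte-like was -0.83.

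Tgfbr1 and Tgfbr2 encode the 2 kinases of the signalling receptor, and their class profiles differed. Tgfbr1 lies at chr4:47353222-47414931. Macrophage-like cells held 188, 167, 165 and 72 CPM of it, where Lats1/2 CKO at E14.5 was the lowest of the 4, and valve-mesenchyme-like cells held 105, 99.1, 105 and 133 CPM. Class means elsewhere lay between 32.8 CPM in coronary-endothelial-like and 74.7 CPM in epicardial-like cells. Erythroid-like cells held 85.9, 44.7, 14.3 and 38.3 CPM, a mean of 45.8 CPM, which is above the means of coronary-endothelial-like and cardiomyocyte-like cells (34.1 CPM), so Tgfbr1 is not read as expressed in those 2 classes. Relative to the other classes Tgfbr1 was at 1.32 (SE 0.17, adjusted p = 1.33e-08) in macrophage-like and 0.65 (SE 0.12, adjusted p = 1.09e-05) in valve-mesenchyme-like cells, and -1.21 (SE 0.19, adjusted p = 7.95e-07) in coronary-endothelial-like cells.

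Tgfbr2, at chr9:116084293-116175360, was highest in endocardial-like cells with 96.2, 105, 68.5 and 94.2 CPM, and each of these exceeded every library of coronary-endothelial-like cells, which held 63.1, 48.3, 36.6 and 45.4 CPM. Macrophage-like cells held 64.9, 69.1, 36.8 and 22.2 CPM and epicardial-like cells 26.4, 29.8, 31.1 and 55.9 CPM, and these overlapped the coronary-endothelial-like range. Cardiomyocyte-like cells were lowest with 2.21, 4.19, 3.96 and 4.81 CPM, outside the range of any other class. The log2 difference was 1.98 (SE 0.13, adjusted p = 8.04e-18) in endocardial-like, 0.83 (SE 0.21, adjusted p = 0.001) in coronary-endothelial-like and -2.95 (SE 0.18, adjusted p = 2.05e-19) in cardiomyocyte-like cells. It was 1.05 (SE 0.27, adjusted p = 0.00145) in macrophage-like cells, a call lost without Lats1/2 CKO E13.5, at 0.71 (SE 0.43, adjusted p = 0.221). Valve-mesenchyme-like cells, at -0.55 (SE 0.21, adjusted p = 0.0332), lost their call without Lats1/2 CKO E13.5, at -0.60 (SE 0.31, adjusted p = 0.170), without Lats1/2 CKO E14.5, at -0.43 (SE 0.19, adjusted p = 0.0800), and without the filter on low counts, at -0.57 (SE 0.22, adjusted p = 0.0608).

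Tgfbr3, the betaglycan gene at chr5:107106570-107289629, had the most uneven profile of the receptors. Endocardial-like cells held 161, 135, 84.4 and 142 CPM, and the next class, cardiomyocyte-like cells, held 20.3, 14.4, 15.4 and 18.1 CPM. Coronary-endothelial-like cells, the other endothelial class, held 15.8, 18.1, 16 and 14.3 CPM, a range that overlapped the cardiomyocyte-like one. The log2 difference was 4.02 (SE 0.16, adjusted p = 1.06e-26) in endocardial-like cells and 0.92 (SE 0.21, adjusted p = 0.000136) in cardiomyocyte-like cells, and that of coronary-endothelial-like cells did not pass, at 0.53 (SE 0.36, adjusted p = 0.250). Macrophage-like cells, with 1, 0, 0 and 1 UMIs, were lower at an adjusted p of 0.00935. That call was lost without Lats1/2 CKO E13.5, at an adjusted p of 0.160. The joined row Gm43422_Tgfbr3, for reads placed on both Tgfbr3 and the unclassified transcript Gm43422 that lies within it at chr5:107132118-107135688, held 12.2, 9.46, 6.37 and 11 CPM in endocardial-like cells and a mean of at most 2.30 CPM in each other class, so the reads not given to Tgfbr3 alone were also highest there.

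The latent binding protein genes were highest in the mesenchymal classes. Ltbp1, at chr17:75005568-75392512, stood at 155, 131, 136 and 208 CPM in valve-mesenchyme-like cells and 170.0, 99.6, 75.4 and 79.3 CPM in mural-like cells. Endocardial-like cells held 78.5, 94.2, 118 and 119.9 CPM, below valve-mesenchyme-like cells in every library, and epicardial-like cells 72.1, 67.5, 143 and 76 CPM. The mural-like and epicardial-like ranges overlapped those of both other classes. For Ltbp1 the log2 difference was 1.60 (SE 0.13, adjusted p = 1.99e-14) in valve-mesenchyme-like, 1.26 (SE 0.19, adjusted p = 7.15e-07) in mural-like, 0.93 (SE 0.13, adjusted p = 7.51e-08) in endocardial-like and 0.59 (SE 0.19, adjusted p = 0.0135) in epicardial-like cells. The epicardial-like call was lost without control E14.5, the highest of its 4 libraries, at 0.41 (SE 0.20, adjusted p = 0.121), and the value was 0.93 with the stricter gate. Cardiomyocyte-like cells, at -0.58 (SE 0.14, adjusted p = 0.000307), lost their call without Lats1/2 CKO E13.5, at -0.44 (SE 0.19, adjusted p = 0.0531). Coronary-endothelial-like cells were at -1.42 (SE 0.25, adjusted p = 8.98e-06), and at -2.53 with clusters.

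Ltbp3, at chr19:5740904-5758532, stood at 114, 206, 213 and 181 CPM in valve-mesenchyme-like cells, above mural-like cells of the same library, which held 89.4, 122, 67.8 and 106 CPM, although the ranges overlapped. Epicardial-like cells held 57.7, 64.9, 124 and 101 CPM, with both E14.5 libraries above both E13.5 libraries. The log2 difference was 2.64 (SE 0.15, adjusted p = 8.93e-20) in valve-mesenchyme-like, 1.82 (SE 0.24, adjusted p = 4.17e-08) in mural-like and 1.37 (SE 0.24, adjusted p = 6.06e-06) in epicardial-like cells. In fibroblast-like cells it was 0.83 (SE 0.26, adjusted p = 0.0183), and this call was lost without Lats1/2 CKO E13.5, at 0.44 (SE 0.35, adjusted p = 0.496), and with DESeq2, at 0.72 (SE 0.29, adjusted p = 0.0916). Erythroid-like cells held 12.3, 104, 57.2 and 57.4 CPM of Ltbp3, a mean of 57.8 CPM against 51.6 CPM in fibroblast-like and 40.6 CPM in endocardial-like cells, so neither level stood above the background class. The log2 difference of coronary-endothelial-like cells was -1.71 (SE 0.42, adjusted p = 0.001), and this call was lost without the 5% of cells with the highest doublet scores, at -1.56 (SE 0.66, adjusted p = 0.0588), and was -2.96 with clusters.

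Ltbp4, at chr7:27305136-27337692, whose product is best known for elastic fibre assembly, stood at 309.5, 281, 249 and 291 CPM in mural-like cells and 182, 185, 199 and 310.2 CPM in valve-mesenchyme-like cells. The next 3 classes were epicardial-like cells with 156, 128, 236 and 190.0 CPM, fibroblast-like cells with 139, 136, 149 and 159 CPM and endocardial-like cells with 129.7, 117, 123 and 147 CPM, with ranges that overlapped. Cardiomyocyte-like cells held 6.63, 8.53, 18.2 and 10.2 CPM and macrophage-like cells 13, 9.53, 27.6 and 16.6 CPM, below every library of the other classes. The log2 difference was 2.04 (SE 0.15, adjusted p = 1.48e-15) in mural-like cells, 1.44 (SE 0.13, adjusted p = 1.52e-13) in valve-mesenchyme-like cells, -3.15 (SE 0.24, adjusted p = 1.88e-16) in cardiomyocyte-like cells and -2.90 (SE 0.39, adjusted p = 1.59e-08) in macrophage-like cells. It was 1.12 (SE 0.16, adjusted p = 1.16e-07) in epicardial-like and 0.69 (SE 0.13, adjusted p = 1.55e-05) in endocardial-like cells, and 1.73 and 1.22 with the stricter gate. That gate leaves the fibroblast-like and mural-like classes out of the comparison. Erythroid-like cells held a mean of 99.2 CPM of Ltbp4 (range 49.1 to 172), above the coronary-endothelial-like mean of 88.1 CPM. Without haemoglobin and mitochondrial UMIs the erythroid-like mean was 169 CPM, against 150 in fibroblast-like and 134 in endocardial-like cells. These class levels thus did not stand clear of the background class.

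Levels per class and the amount a class contributed to a heart library gave different orders, as the classes differed in cell number and depth. Endocardial-like cells held the largest mean share of Tgfb1 UMIs, 41% over the 4 libraries (range 31.3 to 56%), against 16.2% in coronary-endothelial-like and 6.31% in macrophage-like cells. Cardiomyocyte-like cells, the most numerous class, held 32.8% of Tgfb2 UMIs (range 22.9 to 44.6%) at a mean level below that of 5 other classes, and valve-mesenchyme-like cells held 18.3% (range 11.6 to 24.8%). Endocardial-like cells held a mean of 41.8% of Tgfbr2 (range 30.7 to 51.8%) and 50.6% of Tgfbr3 UMIs (range 30.8 to 64.9%). In control E14.5, cardiomyocyte-like cells held more of Tgfbr3, 45.4% against 30.8%. For Ltbp3 the largest mean class share was 27.4% (range 17.3 to 36.5%), in valve-mesenchyme-like cells. Cardiomyocyte-like cells held more of it in both E14.5 libraries, 26.3% against 21.4% in control and 24.8% against 17.3% in Lats1/2 CKO. Cells in none of the 9 classes held 10.5% (Tgfbr3) to 29.2% (Tgfb3) of a member's UMIs. These shares follow the cells recovered in each library and not the tissue, and those of Tgfb2 and Ltbp3 in cardiomyocyte-like cells carry the limit on free RNA given above.

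**Figure D3:**
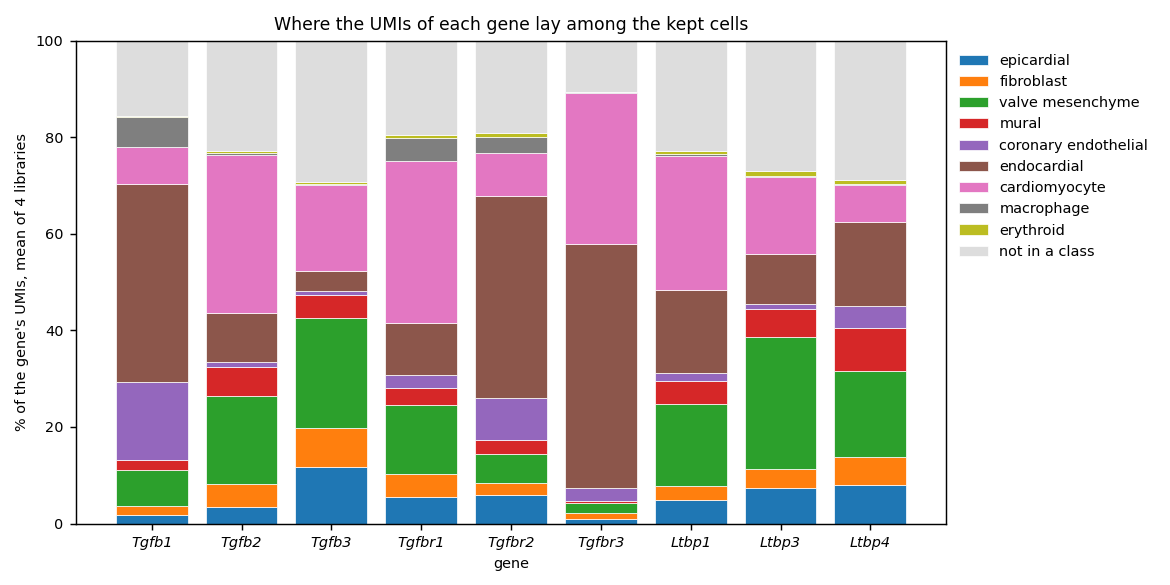
Share of each gene's UMIs (vertical axis, percent, mean of 4 libraries) that lay in each cell class (colours), with cells in no class in light grey. Endocardial-like cells hold 41% of Tgfb1, 41.8% of Tgfbr2 and 50.6% of Tgfbr3 UMIs.

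Members fell into sets with like profiles when log2(CPM + 10) was correlated over the 32 sums of 8 classes and 4 libraries. These correlations describe sums that share libraries, depth and class, and carry no test. Tgfb2, Ltbp1 and Ltbp3 were closest to one another, with Pearson's r of 0.89 for Ltbp1 with Ltbp3, 0.88 for Tgfb2 with Ltbp1 and 0.86 for Tgfb2 with Ltbp3. Tgfb3 had 0.82 with Ltbp3 and 0.77 with Tgfb2. Tgfb1 went the other way, with -0.53 with Tgfb2 and -0.61 with Tgfb3, and its closest member was Tgfbr2 at 0.60. Among all genes with a mean of at least 50 CPM, the closest to Tgfb2 were Igsf3 (0.93) and Fbn2 (0.93), the second a fibrillin gene. For Tgfb1 they were Rap1a (0.88) and Fxyd5 (0.86), and for Tgfb3 Rcn3 (0.92) and Mmp23 (0.92). The closest to Tgfbr1 were Tnfaip8 (0.86) and Fcgrt (0.85), and to Tgfbr3 Aplp2 (0.81) and Rdx (0.80). The closest to Tgfbr2 was Rap2a (0.85). Ltbp1 was closest to Igsf3 (0.91) and Kank1 (0.90), Ltbp3 to Bgn (0.91), a proteoglycan that binds TGF-beta, and Igsf3 (0.91), and Ltbp4 to P3h3 (0.93) and Mmp14 (0.92), a membrane protease. Igsf3 was thus among the 2 closest genes for Tgfb2, Ltbp1 and Ltbp3. None of the genes named here is a gate marker.

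The promoter windows of the 3 members with the most alike profiles and of Tgfb1, which went against them, are shown to set their sequence beside these profiles. Each is the 250 bases before a RefSeq transcription start (GRCm38.p6), 5′ to 3′ on the gene's strand. Such windows were matched for 7 of the 9 members by symbol, Tgfb3 and Tgfbr3 being without one, and for genes with several the one at the lowest coordinate is shown. Capitals mark matches on either strand to the TATA motif TATAAA, the GC box GGGCGG, the E-box CACGTG, the cyclic-AMP element TGACGTCA, the AP-1 motif TGANTCA, the TEAD motif GGAATG and the SMAD motif CAGAC, a choice made after the sequences were seen.
Tgfb1, chr7:25686752-25687001, plus strand: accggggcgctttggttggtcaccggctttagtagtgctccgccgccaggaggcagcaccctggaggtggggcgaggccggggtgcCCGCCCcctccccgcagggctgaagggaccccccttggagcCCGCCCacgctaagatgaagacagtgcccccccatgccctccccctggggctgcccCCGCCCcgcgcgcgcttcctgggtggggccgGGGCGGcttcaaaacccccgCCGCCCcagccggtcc
Tgfb2, chr1:186705990-186706239, minus strand: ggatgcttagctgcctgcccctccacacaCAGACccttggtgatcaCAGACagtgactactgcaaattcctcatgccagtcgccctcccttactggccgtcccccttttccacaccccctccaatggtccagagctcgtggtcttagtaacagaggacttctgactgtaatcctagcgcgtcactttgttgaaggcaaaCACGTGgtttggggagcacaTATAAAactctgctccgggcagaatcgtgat
Ltbp1, chr17:75005279-75005528, plus strand: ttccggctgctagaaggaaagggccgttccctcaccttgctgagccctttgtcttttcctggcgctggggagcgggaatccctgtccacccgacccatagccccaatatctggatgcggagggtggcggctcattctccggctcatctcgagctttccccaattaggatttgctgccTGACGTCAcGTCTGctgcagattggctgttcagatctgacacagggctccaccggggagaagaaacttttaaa
Ltbp3, chr19:5740650-5740899, plus strand: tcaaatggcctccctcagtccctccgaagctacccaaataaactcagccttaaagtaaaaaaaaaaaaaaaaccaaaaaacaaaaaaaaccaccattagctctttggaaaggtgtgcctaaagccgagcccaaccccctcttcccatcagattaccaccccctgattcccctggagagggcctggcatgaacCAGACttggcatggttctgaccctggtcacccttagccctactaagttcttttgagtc
The Tgfb1 window held 5 GC boxes, a motif present in 32.7% of all 32851 windows of this length. Tgfb2 held 1 TATA motif (12.4% of windows), 1 E-box (6.02%) and 2 SMAD motifs (42.2%). Ltbp1 held 1 cyclic-AMP element (1.55%) and 1 SMAD motif in the window shown, while its other window held 0 and 2. Ltbp3 held 1 SMAD motif. None of the 4 windows shown held the TEAD motif (12.6%) or the AP-1 motif (6.75%). A match is a run of letters and not a bound site, and no match says only that these letters are absent from this window.

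Genotype was then compared within each class, over the 2 control and the 2 Lats1/2 CKO libraries with stage as a term. No member passed the threshold in any class. The fit had 1 residual degree of freedom, and edgeR shares the spread between genes. After the filter on low counts 52 of the 72 values for members could be tested: all 9 members in endocardial-like and cardiomyocyte-like cells, 7 in epicardial-like and valve-mesenchyme-like, 6 in fibroblast-like, mural-like and coronary-endothelial-like, and 2 in macrophage-like cells. Called were 0 of the 52 by edgeR and 0 by DESeq2, and 1 had an unadjusted p below 0.05. Few other genes passed either: 0% of genes tested in epicardial-like, 0.149% in fibroblast-like, 0.0906% in valve-mesenchyme-like, 0.151% in mural-like, 0.0832% in coronary-endothelial-like, 0.0818% in endocardial-like, 0% in cardiomyocyte-like and 0% in macrophage-like cells. The members' log2 values ran from -0.57 to 0.78, and the lowest adjusted p was 0.855. The 1 unadjusted edgeR p below 0.05 was in cardiomyocyte-like cells, where 550 of 14349 genes had one. With these standard errors, changes of the size seen could not be told from 0.

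Wt1 and Creert2 were highest in epicardial-like cells, but Wt1 is a marker of that gate and Creert2 lies at its locus. In epicardial-like cells the genotype log2 value was -0.32 (SE 0.21) for Tgfb2, -0.42 (SE 0.28) for Tgfb3 and 0.47 (SE 0.46) for Tgfbr2. For the latent binding protein genes it was -0.46 (SE 0.33) for Ltbp1, -0.05 (SE 0.30) for Ltbp3 and -0.29 (SE 0.22) for Ltbp4, and for Tgfbr1 0.01 (SE 0.30). Fibroblast-like cells had 0.35 (SE 0.27) for Tgfb2, 0.35 (SE 0.38) for Tgfb3, 0.69 (SE 0.45) for Ltbp3 and 0.04 (SE 0.27) for Ltbp4. None of these 11 values passed, with adjusted p from edgeR of at least 0.855. The ligand values were below 0 in epicardial-like and above 0 in fibroblast-like cells. When both classes were summed per library, 0 of the 7 members tested passed.

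Ratios at a single stage compare 1 library with 1 library, and their exact conditional binomial intervals cover counting error only. Tgfb2 in fibroblast-like cells had a log2 ratio of Lats1/2 CKO over control of -0.03 (95% counting interval -0.35 to 0.30) at E13.5 and 0.81 (95% counting interval 0.26 to 1.40) at E14.5, where the control library was the lowest of the 4. In cardiomyocyte-like cells Tgfb2 had -0.48 (95% counting interval -0.62 to -0.34) at E13.5 and -0.35 (95% counting interval -0.52 to -0.19) at E14.5. Both Lats1/2 CKO libraries thus lay below the control of their stage, and the fitted value over both stages was -0.40 (SE 0.13), with an edgeR p of 0.0389 before and 0.992 after adjustment. The Tgfb2 level there is not read as expression in those cells, and the part of free RNA in this shift was not tested. Ltbp3 in valve-mesenchyme-like cells had 0.85 (95% counting interval 0.58 to 1.14) at E13.5 and -0.24 (95% counting interval -0.75 to 0.27) at E14.5. Ltbp3 in cardiomyocyte-like cells, whose mean of 12.4 CPM lay below the erythroid-like 57.8 CPM, had 0.89 (95% counting interval 0.24 to 1.61) and -0.14 (95% counting interval -0.58 to 0.30). Ltbp4 in coronary-endothelial-like cells had -1.30 (95% counting interval -1.96 to -0.66) at E13.5 and 0.31 (95% counting interval -0.40 to 1.04) at E14.5. The ratios of these last 3 did not keep their sign between stages.

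**Figure D4:**
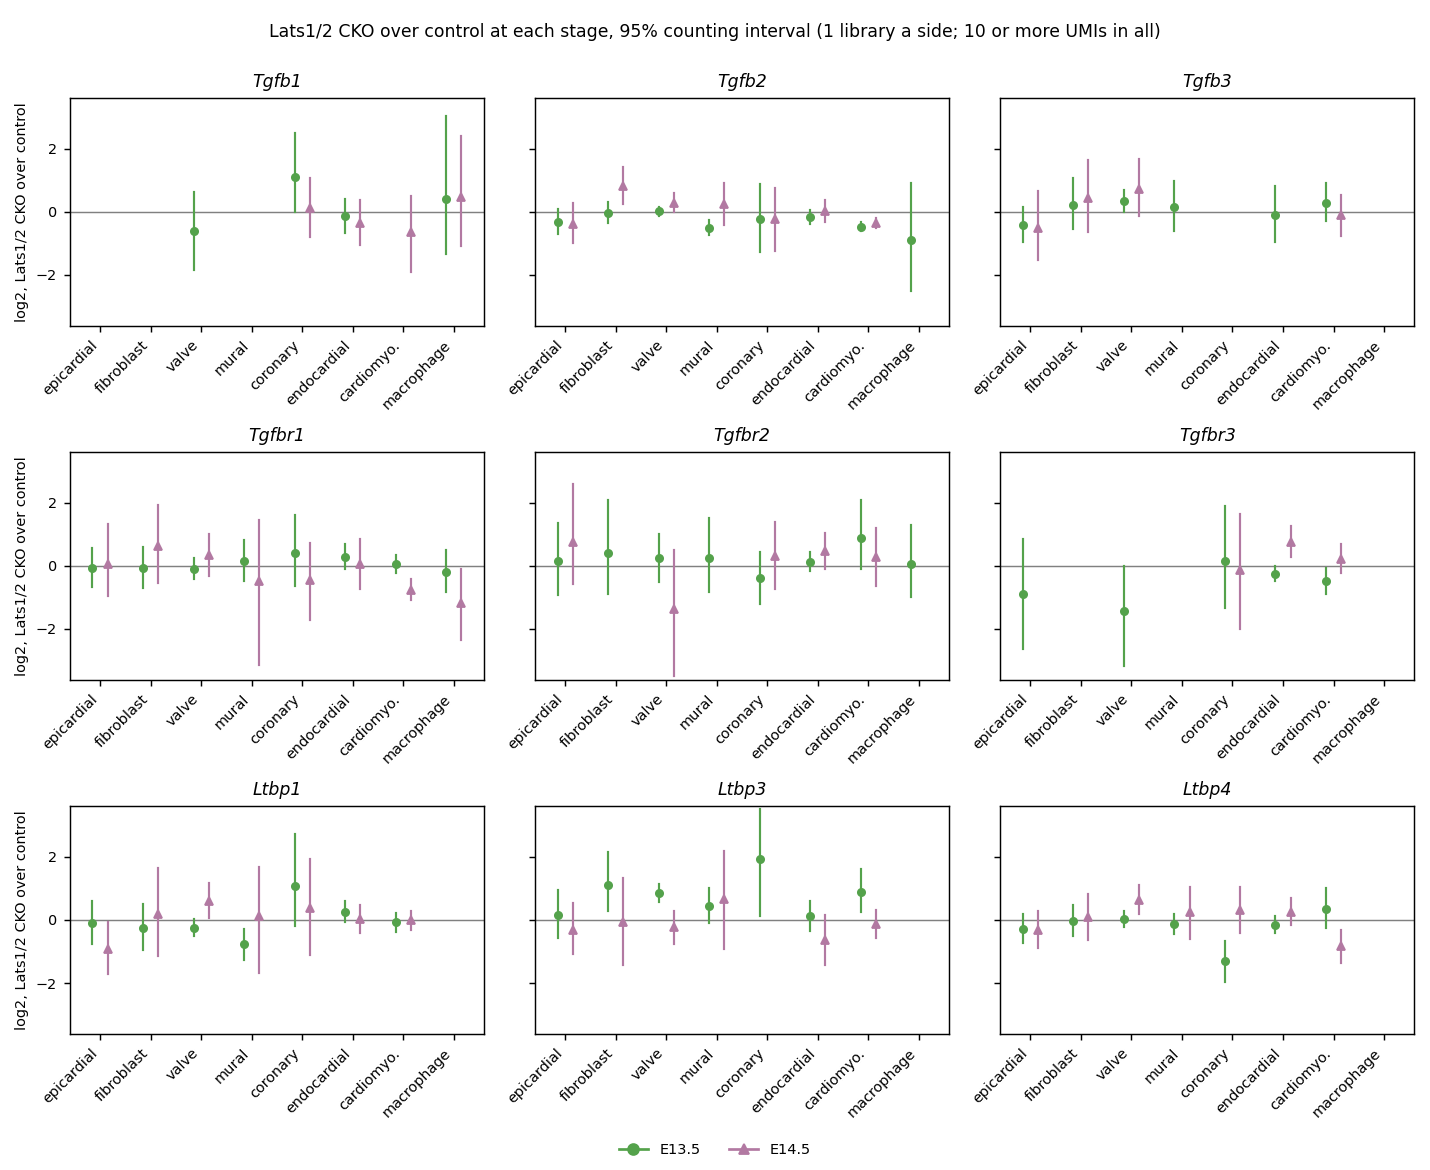
Log2 ratio of Lats1/2 CKO over control for each gene (vertical axis) in 8 classes (horizontal axis), at E13.5 (green circles) and E14.5 (purple triangles), with 95% counting intervals drawn as far as 3.5 either way. Pairs of sums with fewer than 10 UMIs in all are not drawn, and each point compares 1 library with 1 library. For Tgfb2 in cardiomyocyte-like cells both stages lie below 0, at -0.48 and -0.35, and the level there is not read as expression in those cells.

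Whether the genotype change of 1 class differed from the mean change of the other 7 was tested over all 32 sums, with library as a block and stage within class. No member passed in any of the 8 classes, 0 of 72 by edgeR, and 4 had an unadjusted p below 0.05. Tgfb2 in fibroblast-like cells had the lowest p of them by edgeR, at 0.61 (SE 0.21, adjusted p = 0.465), from an unadjusted value of 0.00499. The other 3 were Tgfb2 in valve-mesenchyme-like cells at 0.43 (SE 0.17, adjusted p = 0.956), Ltbp4 in valve-mesenchyme-like cells at 0.50 (SE 0.23, adjusted p = 1) and Ltbp1 in mural-like cells at -0.77 (SE 0.34, adjusted p = 1), by edgeR. The mean of the other classes weighs each class alike, also where a sum holds few UMIs, such as Ltbp1 in macrophage-like cells with 1, 6, 2 and 2. Without the control E13.5 library the Ltbp1 value turned to 0.52. Over all genes, the shares called were 0.391% for epicardial-like, 0.147% for fibroblast-like, 0.0782% for valve-mesenchyme-like, 0.0196% for mural-like, 0.0489% for coronary-endothelial-like, 0.00978% for endocardial-like, 0.0293% for cardiomyocyte-like and 0.0685% for macrophage-like cells. An unadjusted edgeR p below 0.05 was found for 604 of 10225 genes in fibroblast-like, 473 in valve-mesenchyme-like and 461 in mural-like cells.

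Stage was compared in the fit within each class, where it cannot be told apart from the lower depth per cell at E14.5. Cells of the 2 stages also lay mostly in different clusters of the same class, for endocardial-like, valve-mesenchyme-like and cardiomyocyte-like cells. The fibroblast-like cluster was mostly of E13.5 cells (312 and 441, against 6 and 13 at E14.5), and the unnamed cluster with fibroblast and mural markers mostly of E14.5 cells. No member passed, 0 of 52 by edgeR and by DESeq2, and 7 had an unadjusted p below 0.05. Of all genes tested, 0.393% were called in epicardial-like, 1.19% in fibroblast-like, 1.38% in valve-mesenchyme-like, 2.48% in mural-like, 1.22% in coronary-endothelial-like, 1.01% in endocardial-like, 0% in cardiomyocyte-like and 1.09% in macrophage-like cells. Over all genes, an unadjusted edgeR p below 0.05 was common as well. Such genes were 558 of 7633 in epicardial-like, 583 of 6031 in fibroblast-like, 1258 of 9938 in valve-mesenchyme-like and 729 of 5965 in mural-like cells. They were 825 of 7214 in coronary-endothelial-like, 1353 of 10998 in endocardial-like, 1701 of 14349 in cardiomyocyte-like and 372 of 3771 in macrophage-like cells. The 7 of 52 are not read as more than that. All 7 member values were higher at E14.5. They were Ltbp3 and Ltbp4 in epicardial-like cells, at 0.91 (SE 0.30, adjusted p = 0.663) and 0.66 (SE 0.22, adjusted p = 0.663), Ltbp4 in valve-mesenchyme-like cells, at 0.53 (SE 0.22, adjusted p = 0.332), and Ltbp1 and Tgfb1 in endocardial-like cells, at 0.54 (SE 0.20, adjusted p = 0.328) and 0.72 (SE 0.26, adjusted p = 0.328). The last 2 were Ltbp3 and Tgfb1 in cardiomyocyte-like cells, at 1.28 (SE 0.35, adjusted p = 0.407) and 2.01 (SE 0.67, adjusted p = 0.418). The mean level of Ltbp3 there was 12.4 CPM, against 57.8 CPM in erythroid-like cells, so it is not read as expression. For Tgfb1 in cardiomyocyte-like cells the 4 libraries held 3, 5, 17 and 11 UMIs.

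Other genes of the pathway were followed as a list of 63, of which 59 could be tested between classes. In valve-mesenchyme-like cells 47 of the 59 were higher and 3 lower (all genes 22.1% and 15.5%), and in mural-like cells 33 were higher and 1 lower (all genes 11.3% and 6.33%). Fibroblast-like cells had 32 higher and 2 lower (all genes 12.9% and 7.16%), and epicardial-like cells 27 and 12 (all genes 20.5% and 12.7%). Endocardial-like cells had 23 higher and 20 lower (all genes 24.2% and 17.8%), and coronary-endothelial-like cells 8 and 29 (all genes 19.7% and 18%). Cardiomyocyte-like cells had 11 higher and 42 lower (all genes 31.7% and 34.2%), and macrophage-like cells 7 and 36 (all genes 18.4% and 22.6%). These counts include Fmod, a marker of the valve-mesenchyme-like gate, which was called higher there, where the gate sets the call, and in epicardial-like cells, and lower in coronary-endothelial-like, endocardial-like and cardiomyocyte-like cells. Dcn, from the marker list for naming fibroblast-like clusters, was not used by the gate. The list's median log2 value ran from -1.83 in macrophage-like to 1.03 in valve-mesenchyme-like cells, against a median over all genes of -0.11 and 0.02.

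Among the other receptors, Eng (endoglin, an endothelial co-receptor) was at a log2 difference of 3.53 (SE 0.11, adjusted p = 2.65e-31) in endocardial-like and 2.51 (SE 0.15, adjusted p = 4.78e-19) in coronary-endothelial-like cells. Acvrl1, a type I receptor of endothelium, was 2.82 higher in coronary-endothelial-like cells, and Acvr2a, an activin receptor, held 1 UMI in all macrophage-like cells. Nrros, which tethers latent TGF-beta on myeloid cells, was at 6.67 (SE 0.25, adjusted p = 4.53e-28) in macrophage-like cells. Of the other latent complex partners, Itgb8 (an integrin subunit that activates latent TGF-beta) was 3.39 higher in epicardial-like cells and held 1 UMI in coronary-endothelial-like cells, and Ltbp2 was 2.98 higher in valve-mesenchyme-like cells. Zfyve9, which brings SMAD2 and SMAD3 to the receptor, was at -1.84 in macrophage-like cells. Smad6, which inhibits signalling of this receptor family, was 2.01 higher in valve-mesenchyme-like cells, and Tgif1, a co-repressor, was 1.75 higher there. Has2, a target gene that makes the hyaluronan of the cushions, was at 4.15 (SE 0.22, adjusted p = 5.93e-21) in valve-mesenchyme-like cells. Snai1 and Snai2, target genes that repress epithelial genes, were 3.91 and 2.64 higher there and held 0 and 2 UMIs in macrophage-like cells. Of the ligand traps, Bgn was 2.12 higher in valve-mesenchyme-like cells and Dcn 3.68 higher in epicardial-like cells, while Fmod served as a gate marker and is not described. All log2 values in this paragraph passed the edgeR threshold.

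By genotype within a class, 0 of 375 tests of the list passed by edgeR, with 34 at an unadjusted p below 0.05, and 0 of 465 passed by DESeq2, with 8. By edgeR the 34 were 9 of 46 in fibroblast-like (all genes 414 of 6031) and 7 of 47 in epicardial-like cells (425 of 7633). Valve-mesenchyme-like cells had 6 of 58 (495 of 9938), coronary-endothelial-like 4 of 47 (320 of 7214) and macrophage-like 3 of 19 (167 of 3771). Mural-like cells had 2 of 45 (236 of 5965), endocardial-like 2 of 55 (495 of 10998) and cardiomyocyte-like 1 of 58 (550 of 14349). In the test of a class's change against the other classes 2 values passed. They were 1 of 59 in valve-mesenchyme-like and 1 of 59 in fibroblast-like cells (all genes 0.0782% and 0.147%). Neither held when single libraries were left out. Dcn, a secreted proteoglycan that binds TGF-beta, was at 1.01 (SE 0.17, adjusted p = 0.000481) by edgeR in valve-mesenchyme-like cells, where control and Lats1/2 CKO held 741 and 1051 CPM at E13.5 and 1163 and 1638 CPM at E14.5. In epicardial-like cells Dcn held 3330.0 and 1953 CPM at E13.5 and 3776 and 1954 CPM at E14.5. Both Lats1/2 CKO libraries thus lay above their controls in the former class and below them in the latter. Without the control or the Lats1/2 CKO library of E13.5 the Dcn value was 0.97 (adjusted p = 0.585) and 1.37 (adjusted p = 0.721), and without those of E14.5 it was 0.88 (adjusted p = 0.303) and 0.84 (adjusted p = 1). These fits have no stage term within class, and with all 4 libraries and no such term it was 1.05 (adjusted p = 0.857). Without the highest doublet scores it was 0.69 (adjusted p = 1).

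Tagln, a smooth muscle actin-binding protein, was at 0.97 (SE 0.20, adjusted p = 0.00649) by edgeR in fibroblast-like cells, where control and Lats1/2 CKO held 506 and 737 CPM at E13.5 and 303 and 558 CPM at E14.5. Leaving out control or Lats1/2 CKO of E13.5 moved it to -0.40 (adjusted p = 1) and 2.16 (adjusted p = 0.340), and leaving out those of E14.5 to 1.08 (adjusted p = 0.123) and 0.79 (adjusted p = 1). With no stage term it was 0.96 (adjusted p = 0.590), and without the highest doublet scores it turned to -0.51 (adjusted p = 1). The macrophage-like sums of Tagln, which enter the mean of the other classes, were 18, 15, 0 and 0 UMIs.

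By stage, 5 of 45 genes tested passed in mural-like cells, where 2.48% of all genes were called, and 1 of 55 in endocardial-like cells, where 1.01% were. They are named here after their values were seen. In mural-like cells the contractile genes Cnn1, at -1.88 (SE 0.40, adjusted p = 0.00304), and Tagln, at -1.42 (SE 0.30, adjusted p = 0.00261), were lower at E14.5, as were Lox, a collagen crosslinking enzyme, at -1.22 (SE 0.34, adjusted p = 0.0378), and Skil, a SMAD co-repressor, at -2.41 (SE 0.58, adjusted p = 0.0118). Zeb2, a transcription factor, was higher at 1.23 (SE 0.34, adjusted p = 0.0366). With clusters in place of the gate none of these 5 passed, and the values were -0.34 for Cnn1, -0.79 for Tagln, -0.31 for Lox, -0.75 for Skil and 0.49 for Zeb2. DESeq2 did not call Cnn1, Lox or Zeb2. Col1a1 was higher at E14.5 in endocardial-like cells, at 1.15 (SE 0.20, adjusted p = 0.0399), and passed under 2 of 8 alternatives.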

How the data were processed

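The deposited file is 1 merged table in which the authors give whole UMI counts per gene and cell, with genotype and stage in the cell names. The submitters' processing notes name STAR, Picard and mm10, and strand handling was not given in the sources used here. The members and lists were chosen with earlier results of these data known, and the gate thresholds were set after the data were seen. All 9 members were named, and of the other pathway genes those called by genotype and at most 3 a group with the largest differences. Cells with at least 500 UMIs, 300 genes and at most 20% mitochondrial UMIs were kept. Scrublet (in scanpy 1.11.5) marked 7, 0, 1 and 2 cells, too few to have worked, so doublets were in effect not removed, while cells with markers of more than 1 lineage were left out. The gate took distinct markers per cell (3 for macrophage-like and epicardial-like, 2 for endothelial and mesenchymal classes, with 4 core genes for fibroblast-like cells, and a minimum share of cardiomyocyte transcripts). At the lowest passing number of markers stood 61.7% of fibroblast-like, 54.9% of mural-like and 47.3% of valve-mesenchyme-like cells, and 18.3% or less of each other class. UMIs summed per class and library were tested with edgeR 4.0.16 (TMM, filterByExpr, quasi-likelihood) and, as an alternative, DESeq2 1.42.0 (R 4.3.3). The edgeR tests were checked on simulated counts with changes set in endocardial-like cells. There the genotype test within the class recovered 29.6% of 2-fold and 91.8% of 4-fold changes. The class test recovered 100% of both, and the test of genotype change between classes 83% and 99%. The simulation gave a gene the same share of UMIs in every sum apart from the set changes, with 1 dispersion for all genes. These rates therefore do not extend to classes or members with few UMIs. The SE is the log2 value over the square root of F. CPM used the class total, ratios a prior of 0.5 counts. Gene positions are from GENCODE vM21. The design text gives e13.4 where the labels give e13.5, and the labels were used.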

Additional observations from a re-analysis of the deposited data

Results flagged for a closer look

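Tgfbr3 in endocardial-like cells had genotype ratios of opposite sign at the 2 stages, each with a counting interval that left out 0. The log2 ratio of Lats1/2 CKO over control was -0.25 (95% counting interval -0.49 to -0.01) at E13.5, from 264 and 314 UMIs, and 0.74 (95% counting interval 0.27 to 1.25) at E14.5, from 53 and 116 UMIs. The control E14.5 library was the lowest of the 4, and the fitted genotype value over both stages was 0.17 (SE 0.25, adjusted p = 0.9998) by edgeR. The difference between the stages was not tested, since each value compares 1 library with 1 library.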

How the results depend on the processing

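The number of class differences called among the members was 53, and 45 to 53 under 11 alternatives (another scaling, no filter on low counts, clusters in place of the gate, a stricter gate, fewer mitochondrial reads, fewer high doublet scores, DESeq2, and each library left out). It was 52 and 45 without the control and the Lats1/2 CKO library of E13.5, and 53 and 50 without those of E14.5. With clusters the fibroblast-like class, with at most 10% mitochondrial UMIs the mural-like class, and with the stricter gate both had fewer than 50 cells in a library and were left out. Of 565 recomputed values of the 53 called differences, 547 kept their direction and their side of the threshold, 18 kept their direction but did not pass, and 0 changed direction; the cause was not tested. The 3 counts for genotype, stage and genotype change between classes were 0 in each of 28 alternatives, the fits without 1 library included (0 to 0). One of them, with no stage term within class, was added after the data were seen. Ltbp1 in mural-like cells changed the direction of its genotype change against other classes without control E13.5, to 0.52 (lowest -1.11 without control E14.5), and no value passed. Of the other pathway values named, 182 of 211 recomputed ones kept direction and side, 27 did not pass, and Tagln in fibroblast-like cells turned to -0.51 without the highest doublet scores and ranged from -0.40 (without control E13.5) to 2.16 with single libraries left out. Within a class, leaving out a library leaves no residual degrees of freedom, and this was not run. The class with the highest level was the same for 7 of 9 members with haemoglobin and mitochondrial UMIs out of the total, and the class with the highest share of cells was the same for 5 of 9 without thinning. The exceptions on level were Tgfb1 and Tgfb3, whose leading classes did not differ beyond their spread. No paired analysis was possible because the labels give each group 1 library and no replicate number. Sums of 0 to 10 UMIs (Tgfb1, Tgfb3 and Tgfbr3 in several classes) limit what could be seen.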
